A study of Mus musculus with 6 samples.

Results

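The genes described here encode writers and readers of N6-methyladenosine (m6A), a methyl mark on adenosines of messenger RNA. Members were the rows of the larger deposited table that carry the symbol, an older alias or the Entrez identifier of 10 listed genes, and all 10 were found, as 20 of 33142 probe sets. The table represents 14923 genes with an Entrez identifier known to RefSeq. *Mettl3*, *Mettl14*, *Wtap* and *Rbm15* are the 4 writers, and *Ythdf1*, *Ythdf2*, *Ythdf3*, *Ythdc1*, *Ythdc2* and *Igf2bp1* are the 6 readers.

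Gene expression was measured on 6 arrays of undifferentiated mouse ESCs (mESCs) of C57BL/6 background at passage 8, before differentiation (day 0). There were 3 arrays of wild-type (WT) cells and 3 of *Alkbh1*-/- cells, in which the gene of the AlkB homolog ALKBH1 is disrupted. Cells of both genotypes were derived from littermate embryos of heterozygous parents. Both genotypes were cultured with leukemia inhibitory factor on irradiated fibroblasts, without treatment. The arrays of a genotype share a single code in the labels, which do not say whether they came from separate cultures or cell lines. If each code stands for a single cell line, genotype and line cannot be told apart in any difference below. The tables analysed here give means over arrays and no value of a single array, so no value below has an error, and no difference between genotypes was tested.

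In mammals, m6A is placed in the nucleus while the transcript is being made. METTL3 is the catalytic subunit, METTL14 supports it and helps to bind RNA, and WTAP and RBM15 bring the complex to its place. Reader proteins bind the mark. The YTHDF proteins do so in the cytoplasm, where they act on translation and decay, and YTHDC1 does so in the nucleus. In mESCs the mark is known for its place on transcripts of pluripotency factors, and cells without METTL3 leave the naive state poorly. FTO and ALKBH5, which remove the mark, belong to the same AlkB family as ALKBH1.

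The writers all gave bright signals. The values that follow are mean log2 values over the 6 arrays, deposited by the authors, in which both genotypes are pooled. *Mettl3*, the methyltransferase itself, read 9.42 at its single probe set, 1423099_a_at. *Mettl14*, its partner, also read 9.42 at a single probe set, 1454751_at. *Rbm15*, an RNA-binding adaptor known for its part in the methylation of *Xist*, read 9.33 at 1434514_at. *Wtap*, the subunit that holds the complex in nuclear speckles, had a pair of probe sets, which read 10.90 (1454805_at) and 10.70 (1452401_at), 0.20 apart. All 4 writers lay above 8.38, the upper quartile of all probe sets in the table.

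The readers spanned a wider range, and 5 of 6 lay above the upper quartile at their brightest probe set. *Ythdf1*, a cytoplasmic reader tied to translation, read 11.48, 10.93 and 10.35 at its 3 probe sets. *Ythdf2*, the reader best known for transcript decay, read 10.15 (1451317_at) and 10.13 (1460357_at). *Ythdf3*, the remaining paralog of this cytoplasmic group, read 9.41, 8.92 and 8.62 at its 3 probe sets. The probe sets of *Ythdf2* thus lay 0.02 apart, against 1.13 for *Ythdf1* and 0.79 for *Ythdf3*. *Ythdc1*, the nuclear reader, read 10.53 (1456699_s_at) and 9.76 (1426827_at). *Ythdc2*, an RNA helicase known from meiosis, had the dimmest value of the members, 7.59 at its single probe set (1437357_at), between the median of all probe sets (6.31) and the upper quartile.

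*Igf2bp1*, an oncofetal protein that stabilizes bound transcripts, had the most probe sets of the members, 4. They read 11.46 (1455223_at), 11.28 (1418761_at), 9.90 (1449210_at) and 8.73 (1459825_x_at). This range of 2.73 within a single gene was wider than the distance between the medians of the writers (9.42) and the readers (10.34). Probe sets differ in how strongly they hybridize, so the brightness of different genes does not rank their transcripts, and writers and readers were not ranked against each other.

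**Figure D1:**
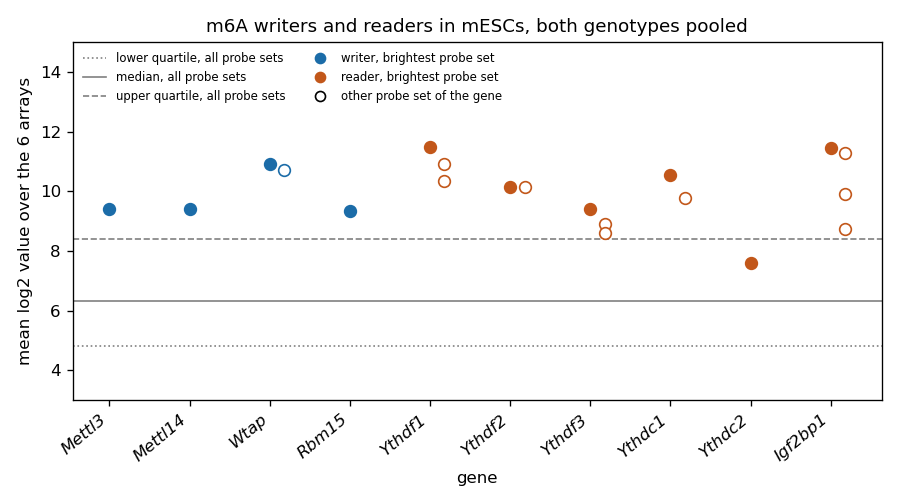
Mean log2 value over the 6 arrays (vertical axis) of each probe set of the m6A writers (blue) and readers (orange). Filled points are the brightest probe set of a gene, open points (moved to the right for visibility) its other probe sets, and grey lines the quartiles of all 33142 probe sets. All 20 points lie above the median of 6.31, and *Ythdc2*, at 7.59, is the only gene below the upper quartile of 8.38 at its brightest probe set.

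The identity of some members rests on the Entrez identifier. Of the 20 probe sets, 4 carried the gene's own symbol in any case, those of *Wtap* and a pair of *Igf2bp1*, and 1 more carried an older alias. The other 15 were named through the identifier. Each of the 3 probe sets of *Ythdf1* carried the symbol Scya19, an old name of a chemokine gene, beside the identifier of *Ythdf1*. The symbols at the *Mettl3* probe set (M6a-pending) and at 1456699_s_at of *Ythdc1* (a RIKEN clone name) are no RefSeq names of those genes either. Symbols that are no RefSeq name of their gene stood at 1541 of 17570 probe sets with both a symbol and a RefSeq gene (8.77%). That count does not separate outdated names from names of another gene. The other deposited table has annotation of its own for 230 of the 1541, and it named the gene of the identifier in 224. No member probe set is among the 230, and for *Ythdf1* the conflict was not settled. The brightest probe sets of *Ythdf1* and *Ythdc1* end in _x_at and _s_at, suffixes for probes that can also match other transcripts. Without such probe sets, a choice made after the values were seen, *Ythdf1* read 10.93 and *Ythdc1* read 9.76.

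All 8 stem cell markers, among them *Pou5f1*, *Sox2* and *Nanog*, lay above the upper quartile at their brightest probe set. So did 9 of the 10 members, so this level does not by itself identify the cells. Fibroblast genes were also present, with 11 of 12 above the median and 7 above the upper quartile. *Fn1*, a fibronectin of the extracellular matrix, was the brightest of them at 12.06. In bulk RNA, fewer cells of a type and less RNA per cell cannot be told apart. How much of a member's signal came from the fibroblast layer was not tested.

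Whether the m6A machinery differed between genotypes was asked of the second table, a class comparison that gives the authors' mean intensity in each genotype. It lists only probe sets that passed a filter and a nominal p-value threshold of the authors' test. After joining by value, 4232 probe sets of the larger table, 12.8%, had group means. None of the 20 member probe sets was among them (0 of 20), while the share was 14.0% over the 9980 probe sets in the members' range of brightness. The member count past a 1.5-fold difference is therefore 0 of 0 genes with group means, where 63.2% of all probe sets with group means passed that fold, 32.8% brighter and 30.3% dimmer in *Alkbh1*-/- mESCs. The smallest difference listed was 1.29-fold. Absence from the list does not show that a member was equal in WT and *Alkbh1*-/- mESCs, since the spread behind each mean is not known here and the header of the table does not say what its filter was. The methods of the study name a false discovery rate correction, a fold threshold and non-overlapping arrays as criteria. The list holds differences below that fold on a linear scale, and it is wider than the set of genes the study called different.

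The targeted gene had the direction of its label. *Alkbh1* had group means of 9.57 in WT and 4.69 in *Alkbh1*-/- mESCs on the log2 scale at its brightest probe set (1434660_at). At its other probe set (1438681_at), WT averaged 6.91 and *Alkbh1*-/- 5.11. The knockout was the dimmer group at both.

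The remaining m6A genes were taken as a list of 25, all of which were found, as 61 probe sets. At the brightest probe set, 24 of 25 lay above the median of the table and 20 above the upper quartile. The median and quartile are those of single probe sets, so taking the brightest per gene can raise these counts. The 9 further writers are subunits of the complex and other adenosine methyltransferases, some with targets other than m6A in messenger RNA. Among them, *Virma* and *Zc3h13*, large scaffold subunits of the complex, read 9.02 and 8.56. *Cbll1*, a ubiquitin ligase bound to the complex, read 9.01. *Rbm15b*, the paralog of *Rbm15*, read 8.16. *Mettl16*, a separate methyltransferase that acts on the *Mat2a* transcript and U6 RNA, read 10.02. *Pcif1*, which methylates adenosine beside the cap, had the lowest level of the list at 6.09. The erasers *Fto* and *Alkbh5* read 8.45 and 9.27. These are values of the brightest probe sets, and some genes had far dimmer ones. *Mettl16* read 5.31 at 1439536_at, *Rbm15b* 4.66 at 1437778_at and *Fto* 3.97 at 1430829_s_at. The other probe set of *Alkbh5* (1437728_at) read 8.94.

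Group means were listed for 3 of these 25 genes, and for 0 of the 9 further writers and 0 of the 2 erasers. By probe set, 7 of 61 (11.5%) were listed, near the 12.8% of the whole table. All 3 encode RNA-binding proteins counted among m6A readers, and all 3 were brighter in *Alkbh1*-/- mESCs by over 1.5-fold, which 32.8% of all probe sets with group means were. Probe sets were listed because of their difference between genotypes in the authors' test. The sizes and directions given here, markers included, are therefore those of selected probe sets. Both *Igf2bp2* probe sets were listed. *Igf2bp2*, the paralog of *Igf2bp1*, had group means of 8.76 in WT and 10.14 in *Alkbh1*-/- mESCs at 1439764_s_at, whose probes may also match other transcripts, a 2.61-fold difference. At 1437103_at, to which the larger table gives the symbol of a ribosomal protein (*Rplp1*), the group means were 8.52 and 9.82, or 2.46-fold. The *Igf2bp1* and *Igf2bp3* probe sets, 4 and 6, were not listed, and a difference between the paralogs was not tested.

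*Rbmx*, a nuclear RNA-binding protein whose access to RNA is opened by nearby m6A, was listed at all 3 of its probe sets. Its group means at 1426863_at were 7.82 in WT and 8.995 in *Alkbh1*-/- mESCs, a 2.25-fold difference, and the dimmer probe sets were at 1.65-fold and 1.54-fold. These directions rest on the join by value. By that join, only 8 of 4232 entries of the class comparison carry the identifier of the probe set whose values they hold. Beside the printed identifiers of the brightest probe sets, the log2 difference (*Alkbh1*-/- minus WT) was −0.78 for *Igf2bp2* and −0.95 for *Rbmx*. By the join, those values belong to other probe sets. *Fmr1*, a translational repressor that binds methylated transcripts, was listed at 2 of 3 probe sets. Its group means at 1423369_at were 9.98 in WT and 10.88 in *Alkbh1*-/- mESCs, a 1.86-fold difference, and 1426086_a_at was at 1.68-fold. *Rbmx* and *Fmr1* are X-linked. Of 473 X-linked probe sets with group means, 446 (94.3%) were brighter in *Alkbh1*-/- mESCs, against 1412 of 3184 autosomal ones (44.3%). The part of this chromosome-wide difference in the values of *Rbmx* and *Fmr1* was not tested. Of the fibroblast markers, 5 of 12 had group means at the brightest probe set, and all 5 were dimmer in *Alkbh1*-/- mESCs, at 0.48-fold to 0.71-fold of WT. Of the stem cell markers, 4 of 8 had group means there, 3 brighter and 1 dimmer in *Alkbh1*-/- mESCs. The part of either cell type in the *Igf2bp2* values was not tested.

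**Figure D2:**
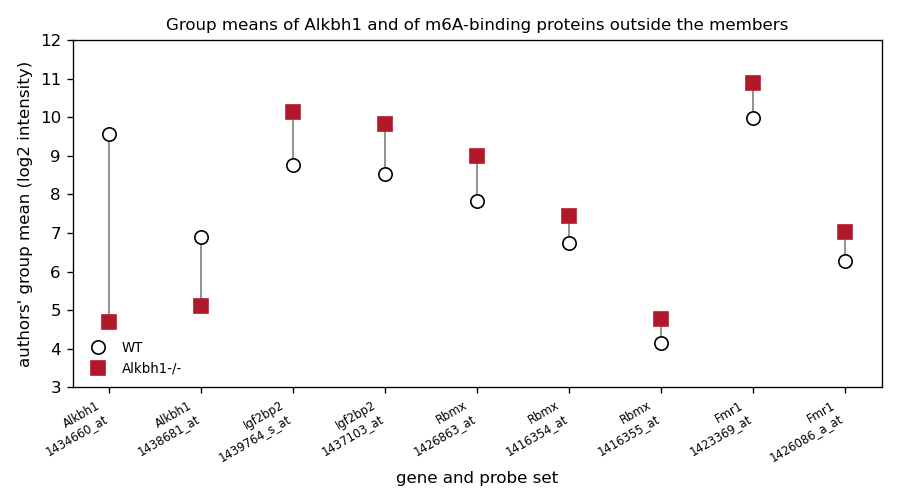
Authors' group means (log2 intensity, vertical axis) in WT (open circles) and *Alkbh1*-/- mESCs (red squares) at each listed probe set of *Alkbh1*, *Igf2bp2*, *Rbmx* and *Fmr1*. Each point is a deposited mean with no error known, and the m6A-binding genes are brighter in *Alkbh1*-/- mESCs at all 7 listed probe sets, while *Alkbh1* is dimmer at both.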

How the data were processed

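RNA of the 6 arrays (Affymetrix GeneChip mouse genome arrays) was normalized together by the authors with the robust microarray analysis algorithm. From their larger table, only the deposited mean log2 value over all arrays was used. From the class comparison, made by a service company, the deposited geometric mean intensity per genotype was used and put on the log2 scale. Both tables also hold the authors' own differences, statistics and p-values, which were not used as values. The class comparison was itself selected by the authors' p-values, so every count of listed probe sets depends on them. One class of that comparison carries a wrong name, and the description deposited with it states that this class is WT. The identifiers printed in the class comparison go with other values: of 4326 entries, 4232 matched exactly 1 probe set by mean log2 value within 0.000001, 65 matched none and 29 several, and only 8 of the 4232 carried that probe set's identifier. The join was used in place of the identifiers, and its tolerance was set after the tables were seen. It was tested only on simulated entries built from the same means, which shows whether the means are distinct enough to join. That test does not show that a real entry belongs to the probe set it matched. A gene is given by its brightest probe set. The quartiles are those of all single probe sets, so this choice can raise any count of genes above them, markers included. Genes and the X chromosome were named through RefSeq (GRCm38.p6). The limma fit planned for values of single arrays was not run. Members, lists and the genes named (members, *Alkbh1*, listed pathway genes with group means; *Virma*, *Zc3h13*, *Cbll1*, *Rbm15b*, *Mettl16*, *Pcif1*, *Fto*, *Alkbh5* and *Fn1* were added after their values were seen) were chosen with earlier results of these data known. Python 3.11.15, pandas 2.3.3, NumPy 2.4.6 and matplotlib 3.10.9 were used. The number of arrays limits the precision.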

Additional observations from a re-analysis of the deposited data

How the results depend on the processing

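The number of members with group means was 0 with printed identifiers and with a join tolerance 10 times narrower or wider. At the wider tolerance, 1 member probe set, of *Igf2bp1*, lay within reach of an entry that another probe set also matched, and such entries were left out. With no group means, counts of members past any fold say nothing. The median level of the members, 9.79, was 9.78 with the mean over each gene's probe sets and 9.59 without probe sets ending in _s_at or _x_at; these moved 6 and 2 of the 10 members. Taking group means by the identifiers printed beside them turned *Igf2bp2* to −0.78 and *Rbmx* to −0.95 (*Alkbh1*-/- minus WT, log2; 1.38 and 1.17 as reported), lowered *Fmr1* from 0.89 to 0.49, left 2 of the list past 1.5-fold in either direction, and moved *Alkbh1* from −4.89 to −1.22, since other probe sets' values stand there. Averaging its probe sets gave *Alkbh1* −3.34. Of the 3 other m6A genes past 1.5-fold, 2 passed 2-fold and 1 remained without X-linked genes, an alternative added after seeing the data; 2 were counted at the narrower tolerance, where *Fmr1* had no match. No paired analysis was possible because the tables hold no values of single arrays, and leaving out replicates was not run for the same reason.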
